A study of Homo sapiens with 2 samples.

Results

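Secreted cytokines of the IL-6 family, chemokines of the CXC class and the colony-stimulating factor CSF2 were followed in the human breast cancer line MDA-MB-231, which lacks hormone receptors and HER2 amplification, after silencing of the long noncoding RNA THAP7-AS1. The 8 genes were taken by symbol: IL6, LIF, IL11, CXCL8, CXCL1, CXCL2, CXCL3 and CSF2. All 8 had at least 1 listed transcript, among 12918 genes in all. One library came from cells that received the THAP7-AS1 Smart Silencer, a mix of silencing oligonucleotides, and the other from cells that received si-NC, the negative control; both cultures were grown in L15 medium with serum and taken at 48 h after transfection. The first is called the si-v library after its column heading, which was assigned to the silencer by elimination, since its name does not hold THAP7-AS1. Every direction below depends on that assignment. With 1 library per group there is no replicate check and no test between the groups, and an effect of the silencer and a difference between cultures cannot be told apart. IL6, CXCL8 and CSF2 stood higher in the si-v library beyond counting error, and LIF, CXCL1, CXCL2 and CXCL3 differed by less than counting error. IL11 had a similar summed level in both libraries, with a different division among its listed transcripts. On approximate fragments IL11 was lower in the si-v library, at 0.806-fold, with a counting interval (0.655 to 0.994) that ended just below no difference.

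The cytokines fall into a few signalling groups. IL-6, LIF and IL-11 each bind a receptor of their own that pairs with the shared subunit gp130, encoded by IL6ST, and signal through JAK kinases and STAT3. CXCL8 (interleukin 8) and CXCL1, CXCL2 and CXCL3 attract neutrophils through the receptors CXCR1 and CXCR2, and CSF2, also called GM-CSF, drives the growth and survival of myeloid cells. Their genes are known targets of NF-kB, AP-1 and C/EBP factors, and their mRNAs are known to be short-lived because AU-rich elements in the 3′ untranslated region recruit decay factors such as tristetraprolin.

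The AU-rich elements are shown first, because nearly all of the genes share them. They are a known trait of such cytokine mRNAs, so their frequency here is no independent finding. In each line the 30 bases richest in the pentamer ATTTA are given for the most abundant listed transcript, read on the transcript strand of GENCODE release 29, with ATTTA in capitals.
CSF2: aaatATTTATTTATTTATTTATTTAagttc
CXCL2: ttctATTTATTTATTTATTTATTTAtttgt
CXCL8: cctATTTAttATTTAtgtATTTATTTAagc
CXCL1: agtcttctATTTATTTATTTAttcattagt
IL11: cagatcttATTTATTTATTTAtttcagtac
LIF: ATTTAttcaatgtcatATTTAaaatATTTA
CXCL3: ttctacttATTTAtgtATTTAtttttgaaa
IL6: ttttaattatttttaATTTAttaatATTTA
CSF2 and CXCL2 held 5 overlapping pentamers in the 30 bases, and IL6 and CXCL3 held 2. Over the whole 3′ untranslated region the 8 genes had 5 to 10 pentamers, from 5 in CXCL1 to 10 in CXCL2. All 8 had at least 4, against 34% of the 10689 genes measured at 1 FPKM (fragments per kilobase of transcript, relative to the depth of the library) or more with an annotated 3′ untranslated region of at least 100 bases. Per kilobase the density was 25.2 in CSF2, 14.1 in IL6, 13.9 in CXCL2, 10.4 in CXCL3, 7.19 in CXCL8, 7.08 in CXCL1, 5.56 in IL11 and 2.18 in LIF, whose untranslated region is 3204 bases long, and the median over those genes was 1.68. The longer element TTATTTATT was present in 7 of the 8, IL6 being the exception, and in 8.19% of those genes.

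The promoters were compared for letters that resemble binding sites of NF-kB and AP-1. Sequence upstream of the start was available for 7 genes, all but LIF, from the RefSeq promoter table on GRCh38.p14. Within 250 bases before the start, both strands were searched for a loose NF-kB pattern (GGG, then 5 bases of any kind, then CC), for the exact NF-kB-like run GGAATTTCC and for TGANTCA, which resembles an AP-1 site. GGAATTTCC was added after the promoters had been read. The stretches around these matches are printed in the direction of transcription, with matches that lie wholly inside in capitals.
CXCL1: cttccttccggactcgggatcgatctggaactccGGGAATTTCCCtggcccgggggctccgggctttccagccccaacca
CXCL2: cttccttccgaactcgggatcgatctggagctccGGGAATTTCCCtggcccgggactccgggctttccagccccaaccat
CXCL3: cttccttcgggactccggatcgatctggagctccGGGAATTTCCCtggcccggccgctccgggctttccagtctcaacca
CXCL8: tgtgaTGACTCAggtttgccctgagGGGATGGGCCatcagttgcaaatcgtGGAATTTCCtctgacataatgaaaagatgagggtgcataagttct
IL6: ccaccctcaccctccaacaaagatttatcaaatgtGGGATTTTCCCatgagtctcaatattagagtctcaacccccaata
CSF2: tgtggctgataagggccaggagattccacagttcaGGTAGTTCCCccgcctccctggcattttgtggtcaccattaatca
IL11: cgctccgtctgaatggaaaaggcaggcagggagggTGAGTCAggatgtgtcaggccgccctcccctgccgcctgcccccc
These lie at chr4:73869280-73869359 (plus strand) for CXCL1, chr4:74099228-74099307 (minus) for CXCL2, chr4:74038723-74038802 (minus) for CXCL3 and chr4:73740427-73740522 (plus) for CXCL8. They lie at chr7:22727092-22727171 (plus) for IL6, chr5:132073669-132073748 (plus) for CSF2 and chr19:55370515-55370594 (minus) for IL11. GGAATTTCC stood in all 4 CXC promoters, its first base 77 or 78 bases before the start in CXCL1, CXCL2 and CXCL3 and 91 bases before it in CXCL8, in 0.413% of all 35116 promoters of the table and in 0.406% of those of tested genes. In CXCL1, CXCL2 and CXCL3 it lies inside overlapping matches to the loose pattern on both strands. The loose pattern was found in 6 of the 7 promoters, in 54.4% of all promoters and in 70.8% of the 8875 promoters of tested genes. TGANTCA was found in CXCL8 and IL11 in 6.57% of all promoters and in 3.58% of those of tested genes. A match is a run of letters and no evidence of binding.

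The levels were taken from the summed FPKM of each gene's listed transcripts, and the counting error from approximate fragment numbers. A 95% interval on these numbers (exact Poisson for a level, Clopper-Pearson for a ratio) covers counting error for 1 gene only and leaves out variation between cultures and the division of reads among transcripts. The log2 ratio is log2((si-v + 1)/(control + 1)) of FPKM, so it understates differences of low genes; plain folds are given beside it. Most of the cytokine mRNAs were scarce: in both libraries only IL11 exceeded the median of the 11046 genes that reached 1 FPKM in at least 1 library, at 1.06 times that median in the si-v library and 1.13 times in the control.

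**Figure D1:**
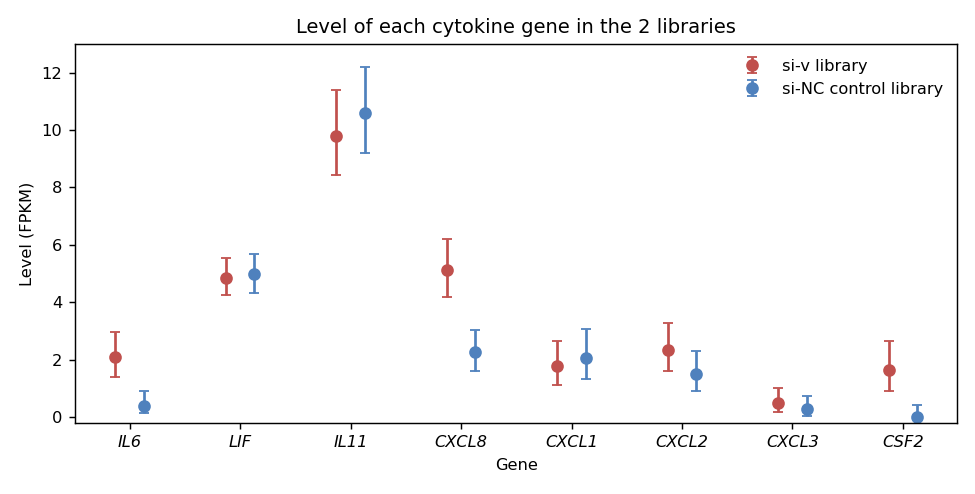
Level of each gene in FPKM (vertical axis) in the si-v library (left point of each pair) and the si-NC control library (right point), with exact Poisson 95% counting intervals. The intervals of the 2 libraries are apart for IL6, CXCL8 and CSF2, and overlap for LIF, IL11, CXCL1, CXCL2 and CXCL3.

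Among the IL-6 family ligands, IL6, the pro-inflammatory and acute-phase cytokine, stood at 2.09 FPKM in the si-v library and 0.38 FPKM in the control, on about 29 and 5 fragments. The si-v level was 5.51 times the control level, with a counting interval of 2.05 to 17.7 (log2 ratio 1.16). IL6 was thus a rare mRNA in both libraries, and its size of difference is loosely set by the 5 control fragments. LIF, named for its action on leukaemia cells and known to maintain stem cells, stood at 4.86 FPKM in the si-v library and 4.98 FPKM in the control, on about 230 and 217 fragments. With a fold of 0.976 (0.809 to 1.18), LIF is the gene of the group whose level is best bounded around no difference. IL6 and LIF overlap genes on the opposite strand, whose reads cannot be told apart from theirs if the counting ignored strand.

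IL11, a cytokine linked to platelet production, fibrosis and bone metastasis of breast cancer, had the highest level of the 8 in both libraries, at 9.8 FPKM in the si-v library and 10.6 FPKM in the control. Its sum hides a different make-up. IL11-201, the longest transcript, stood at 3.57 FPKM in the si-v library and 5.11 FPKM in the control. IL11-202 stood at 2.69 FPKM in the si-v library and 5.38 FPKM in the control, which is 27.5% and 50.6% of the gene's sum. These 2 transcripts made up nearly all of the control sum, and both were lower in the si-v library. IL11-204 stood at 2.65 FPKM in the si-v library, on about 32 fragments, and was listed at 0 in the control. IL11-203 was low, at 0.893 FPKM in the si-v library and 0.143 FPKM in the control. IL11-203 and IL11-204 thus each stood above their control level, but below IL11-201 and IL11-202 in both libraries. On fragments, which weigh long transcripts more, IL11 had a fold of 0.806 (0.655 to 0.994), and IL11-201 alone had a log2 ratio of -0.42 against -0.11 for the sum. These transcripts share exons, and how the reads were divided among them was not tested.

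**Figure D2:**
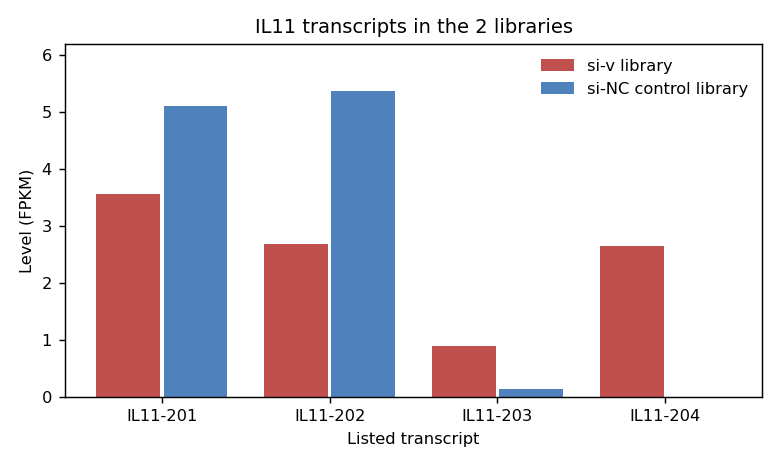
Level in FPKM (vertical axis) of the 4 listed IL11 transcripts in the si-v library (left bar) and the si-NC control library (right bar); each bar is 1 library, so there is no error bar. IL11-201 and IL11-202 are lower in the si-v library, while IL11-204 stands at 2.65 FPKM in the si-v library and is listed at 0 in the control.

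Of the neutrophil chemokines, CXCL8 stood at 5.13 FPKM in the si-v library and 2.25 FPKM in the control, on about 104 and 42 fragments. This is 2.28-fold, with a counting interval of 1.58 to 3.35 (log2 ratio 0.92), and it is the best supported difference of the group by number of fragments. The 3 closely related genes, also known as GRO alpha, beta and gamma, did not share its size. CXCL2 stood at 2.34 FPKM in the si-v library and 1.49 FPKM in the control, a fold of 1.57 (0.877 to 2.88) on about 34 and 20 fragments. CXCL1 stood at 1.79 FPKM in the si-v library and 2.07 FPKM in the control, a fold of 0.863 (0.46 to 1.56) on about 23 and 25 fragments. The interval of CXCL1 ends just below the lower bound of that of CXCL8, whereas those of CXCL2 and CXCL8 overlap. CXCL3 was near the limit of detection, at 0.499 FPKM in the si-v library and 0.264 FPKM in the control, on about 6 and 3 fragments. Its fold of 1.89 has a counting interval of 0.394 to 11.4, so a difference in either direction was not detectable at this depth. Together the 4 chemokines summed to 9.75 FPKM in the si-v library and 6.07 FPKM in the control, of which CXCL8 made up 52.6% and 37%.

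CXCL1, CXCL2 and CXCL3 are near copies, as the promoter lines above show, and their reads could have been divided among them. Their coding sequences in GENCODE release 29 were identical at 93.5% of positions for CXCL1 and CXCL2, 94.4% for CXCL2 and CXCL3 and 90.7% for CXCL1 and CXCL3, but at 52.4% to 54% with CXCL8. Of the 50-base windows along each full transcript, 5.73% of those of CXCL1, 9.24% of CXCL2 and 5.26% of CXCL3 also occurred in another of the 4 transcripts, and 0% of those of CXCL8. The values of CXCL1, CXCL2 and CXCL3 are therefore uncertain; how far the sharing moved them was not tested.

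CSF2, the colony-stimulating factor, stood at 1.63 FPKM in the si-v library, on about 15 fragments (0.896 to 2.64 FPKM), and was listed at 0 in the control. An absence of fragments still allows up to 3 of them, or 0.347 FPKM, in the control, so the si-v level as measured was at least 4.69-fold higher. With the counting error of the 15 si-v fragments included, the lower Clopper-Pearson limit of the ratio is 3.31-fold. A value of 0 may also be a failed estimate, which a table without counts cannot show. The gene has 1 annotated transcript, so no choice among transcripts enters this value.

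**Figure D3:**
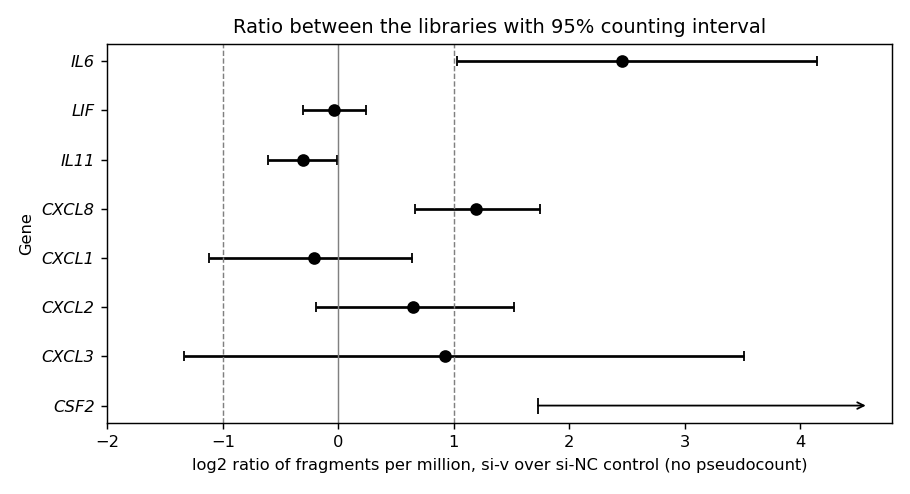
Log2 ratio of fragments, si-v over si-NC control, without a pseudocount (horizontal axis), for each gene, with Clopper-Pearson 95% counting intervals; dashed lines mark 2-fold, and the arrow for CSF2, which has no upper limit, starts at its lower limit of 1.73. IL6, CXCL8 and CSF2 lie right of 0 with their whole interval, LIF, CXCL1, CXCL2 and CXCL3 span 0, and the interval of IL11 ends just below it.

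Set in order, the levels in the si-v library ran from IL11 through CXCL8, LIF, CXCL2, IL6, CXCL1 and CSF2 to CXCL3. CXCL8 and LIF did not differ beyond their counting intervals there, nor did CXCL2, IL6, CXCL1 and CSF2. In the control the order was IL11, LIF, CXCL8, CXCL1, CXCL2, IL6, CXCL3 and CSF2, and CXCL8, CXCL1 and CXCL2 did not differ beyond their intervals. CXCL8 was thus level with LIF in the si-v library, and below LIF in the control, where the intervals were 1.62 to 3.03 FPKM for CXCL8 and 4.34 to 5.69 FPKM for LIF.

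Against all genes the group was mixed. On the log2 scale with the pseudocount, 2 of the 8, CSF2 and IL6, were at least 2-fold higher in the si-v library and 0 at least 2-fold lower, where 2.37% and 2.49% of the 11046 genes were. At 1.5-fold 3 were higher, CXCL8 being the third, and 0 lower, where 9.82% and 8.91% of the genes were. In all, 5 of the 8 were higher and 3 lower, with a median log2 ratio of 0.33, against 0.00 over the genes. Low genes pass a fold more often: among the 1308 genes with a mean under 2 FPKM, to which CSF2 and IL6 belong, 3.75% were at least 2-fold higher and 4.05% at least 2-fold lower. CXCL3 did not reach 1 FPKM in either library, and IL6 and CSF2 reached it in the si-v library alone, so they could enter the tested genes only by being higher there. From the highest ratio down, CSF2 ranked 82, IL6 170, CXCL8 355, CXCL2 1904, LIF 5886, IL11 6671 and CXCL1 7061 of 11046.

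**Figure D4:**
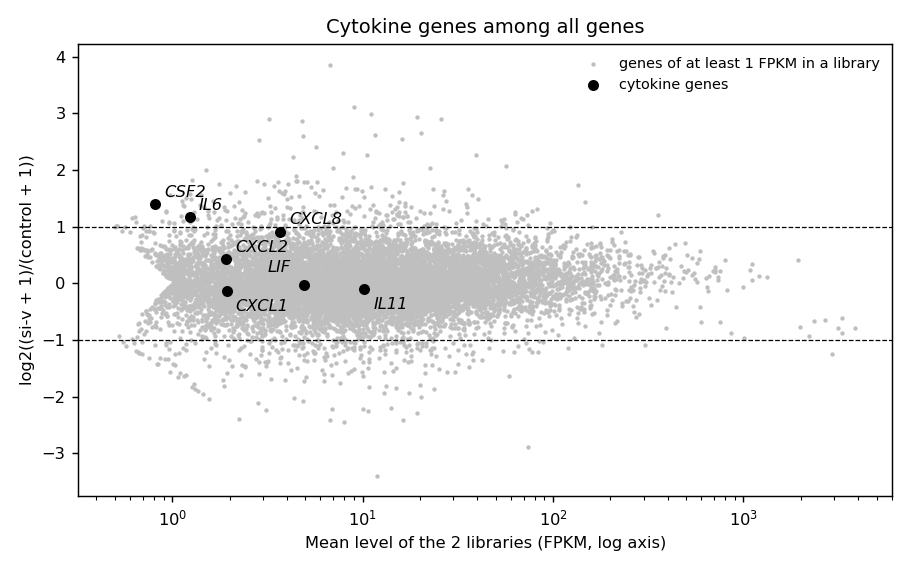
Log2((si-v + 1)/(control + 1)) of FPKM (vertical axis) against the mean level of both libraries (horizontal log axis) for the 11046 genes that reached 1 FPKM in a library (grey), with 7 of the 8 cytokine genes in black; CXCL3 was below that level and is not drawn. CSF2 and IL6 lie above the dashed 2-fold line among low genes, and LIF, IL11 and CXCL1 lie near 0.

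The elements printed above were also set against the ratio over the whole table. Genes whose 3′ untranslated region holds TTATTTATT had a median log2 ratio of -0.13 (875 genes), against 0.01 for those without it (9814 genes), and 1.49% against 2.35% of them were at least 2-fold higher in the si-v library. Genes with GGAATTTCC upstream of their start had a median of 0.14 (36 of the 8875 tested genes with an available promoter), against 0.00 for those without. Of them 2.78% against 2.34% were at least 2-fold higher, the first share resting on very few of the 36 genes. That run was added after the promoters had been read. The 36 genes include CXCL8, CXCL1 and CXCL2, so their median is not independent of the genes described here. The loose NF-kB pattern gave medians of 0.01 with it and 0.00 without, and TGANTCA also 0.01 with it and 0.00 without, where 1.57% against 2.37% of the genes were at least 2-fold higher. These are descriptions across genes of 2 libraries.

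The factors that read such elements were looked at next. Of 19 factors that destabilise or stabilise AU-rich mRNAs, 18 were measured at 1 FPKM or more; 7 of these stood higher and 11 stood lower in si-v, with a median log2 ratio of -0.09. CNOT1, the scaffold of the CCR4-NOT deadenylase, was the single one past 1.5-fold, at 28.8 FPKM in the si-v library and 13.8 FPKM in the control (1.01), where 9.82% of all tested genes were that much higher and 8.91% lower. ZC3H12A, the nuclease regnase-1 that cleaves IL6 mRNA, stood at 2.32 FPKM in the si-v library and 1.37 FPKM in the control (0.49). RC3H2, the paralog of roquin, stood at 20.1 FPKM in the si-v library and 28.7 FPKM in the control (-0.49), and TIAL1 at 41.2 FPKM in the si-v library and 54.1 FPKM in the control (-0.39). ZFP36, the gene of tristetraprolin, was added for its known role after its value was seen, at 12 FPKM in the si-v library and 14.3 FPKM in the control (-0.23).

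Of the factors that regulate transcription of cytokine genes, more stood higher than lower in the si-v library, but their summed level was lower there. The sum was 933 FPKM in the si-v library and 1073 FPKM in the control, and the abundant gene FOSL1 sets its direction. FOSL1 made up 463 FPKM of the si-v sum and 739 FPKM of the control sum. The list mixes activators with inhibitors of NF-kB, so its counts and median do not measure NF-kB or AP-1 activity. Of 24 NF-kB, AP-1 and C/EBP genes and their regulators, 23 were measured and 18 stood higher in the si-v library; 9 did so by at least 1.5-fold, while 3 were that much lower; the median log2 ratio was 0.44. Over all tested genes 5568 of 11046 stood higher, and 9.82% were higher and 8.91% lower by 1.5-fold or more, with a median of 0.00; whether the list differs from them was not tested. CEBPB, whose product was first found as a factor of the IL6 promoter, stood at 26.8 FPKM in the si-v library and 11.5 FPKM in the control (1.16). The stress-induced factor ATF3 stood at 6.26 FPKM in the si-v library and 1.43 FPKM in the control (1.58), but its ratio was 0.89 from its most abundant transcript. The NF-kB subunit genes at the low end were REL and RELA. REL stood at 0.208 FPKM in the si-v library and 1.7 FPKM in the control (-1.16, and -0.73 from its most abundant transcript). REL reached 1 FPKM in the control alone, so it could enter the counts only by being lower in si-v. FOS, added after its value was seen, stood at 1.28 FPKM in the si-v library and 0.677 FPKM in the control. FOS could thus enter only by being higher in si-v. RELA stood at 9.82 FPKM in the si-v library and 16.6 FPKM in the control (-0.70, and -0.53 from its most abundant transcript). The AP-1 gene FOSL1, added after its value was seen, was also at least 1.5-fold lower. FOSL1 stood at 463 FPKM in the si-v library and 739 FPKM in the control (-0.67, and -0.35 from its most abundant transcript).

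The inputs from IL-1, TNF and Toll-like receptors went both ways, with 8 of 17 higher and 9 lower and a median log2 ratio of -0.02. Among all tested genes 5568 of 11046 stood higher. By 1.5-fold or more, 4 of the 17 stood higher and 2 lower, where 9.82% and 8.91% of all tested genes did. Whether the list differs from all genes was not tested. The adaptor gene TRAF2 of TNF receptors stood at 34.7 FPKM in the si-v library and 12.8 FPKM in the control (1.37), and the TNF receptor gene TNFRSF1A at 15.6 FPKM in the si-v library and 8.28 FPKM in the control (0.84, and 0.41 from its most abundant transcript). MYD88, the adaptor of IL-1 and Toll-like receptors, stood at 1.55 FPKM in the si-v library and 5.78 FPKM in the control (-1.41). IRAK4, the kinase next to MYD88, had a ratio of -0.73 that turned to 0.88 when read from its most abundant transcript, so no direction is given for it. Its summed level was 0.889 FPKM in the si-v library and 2.14 FPKM in the control. IRAK4 could thus enter the counts only by being lower in si-v.

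On the receiving side, receptors and signalling genes of the IL-6 family were lower for 12 of 16 measured genes and higher for 4, with a median log2 ratio of -0.20. Over all tested genes 5478 of 11046 stood lower. None of the 16 was at 2-fold, where 2.37% of all tested genes were higher and 2.49% lower, so a count of 0 is near that background. IL6ST, the gp130 gene, stood at 20.9 FPKM in the si-v library and 36.4 FPKM in the control (-0.77), and at -2.47 when read from its most abundant transcript. The feedback inhibitor gene SOCS1 stood at 1.81 FPKM in the si-v library and 3.14 FPKM in the control (-0.56). The kinase gene TYK2, at 10.8 FPKM in the si-v library and 8.08 FPKM in the control (0.38, and 1.25 from its most abundant transcript), and the phosphatase gene PTPN11, at 58.9 FPKM in the si-v library and 47 FPKM in the control (0.32), lay the other way. Chosen after their values were seen, as direct partners of the ligands, were LIFR at 2.82 FPKM in the si-v library and 4.34 FPKM in the control (-0.48), IL11RA at 0.823 FPKM in the si-v library and 0.555 FPKM in the control, and SOCS3, a target of STAT3, at 11 FPKM in the si-v library and 15.7 FPKM in the control (-0.48). IL6R had no listed transcript and was not analysed here.

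The chemokine receptor genes CXCR1 and CXCR2 also had no listed transcript. Of the 8 receptor genes for CXC chemokines and CSF2, 2 were measured. CXCR4, the receptor of CXCL12, stood at 2.2 FPKM in the si-v library and 5.57 FPKM in the control (-1.04, and -1.75 from its most abundant transcript), on about 46 and 114 fragments. CSF2RA, the ligand-binding receptor subunit of CSF2, stood at 5.9 FPKM in the si-v library and 4.61 FPKM in the control (0.30); the gene of its signalling partner CSF2RB was not analysed here.

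Other secreted factors gave a few further differences. Of 21 other cytokines and growth factors of inflammation, 6 had no listed transcript and 8 reached 1 FPKM. Of these 8, 6 stood higher in the si-v library, with a median log2 ratio of 0.22 over the 8. Over all tested genes 5568 of 11046 stood higher, with a median of 0.00. Whether the list differs from them was not tested. IL24, a cytokine of the IL-10 family, stood at 2.47 FPKM in the si-v library and 0.324 FPKM in the control (1.39), on about 50 and 6 fragments. IL1A, the gene of interleukin 1 alpha, stood at 1.64 FPKM in the si-v library and 0.268 FPKM in the control (1.06), on about 42 and 6 fragments. IL24 and IL1A reached 1 FPKM in the si-v library alone, so they could enter the count only by being higher there. At the low end of the list, CSF1 stood at 17.6 FPKM in the si-v library and 18.6 FPKM in the control (-0.08) and MIF at 136 FPKM in the si-v library and 138 FPKM in the control (-0.02). TNF was listed at 0 in both libraries, and IL1B, chosen after its value was seen, stood at 1.47 FPKM in both. IL1B is counted among the 6 higher genes by a difference smaller than these digits. Of the other IL-6 family ligands, CLCF1 stood at 13.5 FPKM in the si-v library and 15.1 FPKM in the control (-0.15) and CTF1 at 2.7 FPKM in the si-v library and 3.68 FPKM in the control (-0.34). Of 12 other CXC chemokine genes 9 had no listed transcript, and none of the rest reached 1 FPKM. Of 15 CC and CX3C chemokine genes 9 had no listed transcript. Among the rest 1 reached 1 FPKM, CCL28, at 3.46 FPKM in the si-v library and 4.21 FPKM in the control (-0.22). Genes without a listed transcript were not measured here.

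**Figure D5:**
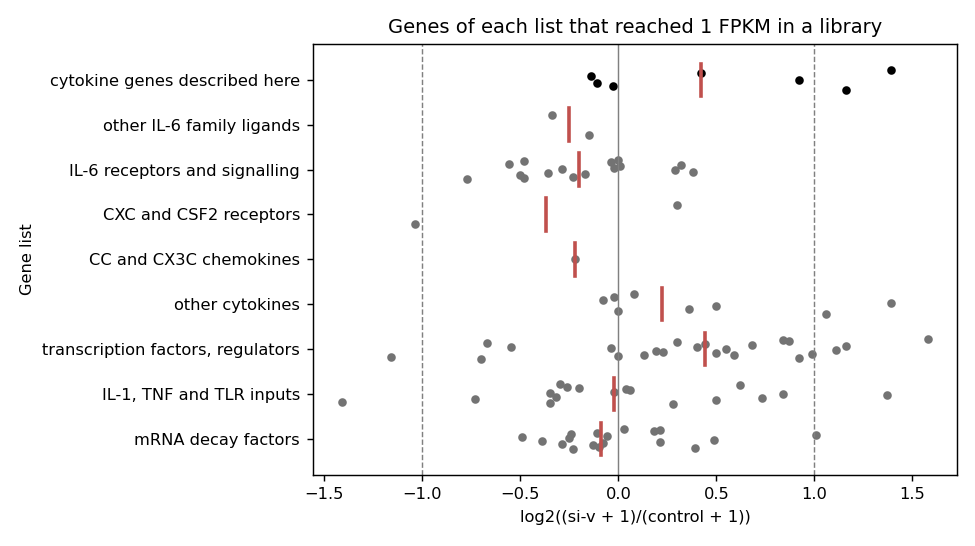
Log2((si-v + 1)/(control + 1)) of FPKM (horizontal axis) for every gene of each list that reached 1 FPKM in a library, 1 point per gene, with the list median as a red bar and dashed lines at 2-fold. Regulators of cytokine transcription have a median of 0.44 and IL-6 receptor and signalling genes one of -0.20.

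The libraries held about 8320000 (si-v) and 7840000 (control) fragments on the listed transcripts. The silencing could not be checked, since 0 of the 3 annotated THAP7-AS1 transcripts were listed. Of 8 basal and mesenchymal markers 6 reached 1 FPKM. VIM stood at 373 FPKM in the si-v library and 344 FPKM in the control, and CD44 at 114 FPKM in the si-v library and 152 FPKM in the control. CAV1 stood at 83.7 FPKM in the si-v library and 118 FPKM in the control (-0.49). FN1 stood at 122 FPKM in the si-v library and 118 FPKM in the control (0.05, and 1.24 from its most abundant transcript). KRT5 stood at 0.247 FPKM in the si-v library and 0.477 FPKM in the control, and SPARC had no listed transcript. Of 7 luminal and hormone receptor markers, the oestrogen receptor gene ESR1 was listed at 0 in both libraries and PGR and TFF1 had no listed transcript. The keratin genes KRT8, at 305 FPKM in the si-v library and 294 FPKM in the control, and KRT18, at 138 FPKM in the si-v library and 126 FPKM in the control, were high, and GATA3 stood at 2.18 FPKM in the si-v library and 2.65 FPKM in the control. Of 9 leukocyte markers, 5 had no listed transcript, PTPRC among them, and CD14 stood at 0.367 FPKM in the si-v library and 0.484 FPKM in the control. LYZ did reach 1 FPKM, at 2.98 FPKM in the si-v library and 2.39 FPKM in the control, on about 49 and 37 fragments. The list summed to 58.7 FPKM in the si-v library and 50.9 FPKM in the control, nearly all of it CD68, a lysosomal gene, at 55 FPKM in the si-v library and 47.8 FPKM in the control. Of 8 endothelial and fibroblast markers, 2 were listed, COL1A1 and PDGFRB, and summed to 1.78 FPKM in the si-v library and 1.49 FPKM in the control. Of the common reference genes, ACTB stood at 93.9 FPKM in the si-v library and 96.1 FPKM in the control, and GAPDH at 219 FPKM in the si-v library and 313 FPKM in the control (-0.51).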

How the data were processed

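RNA-seq of 2 libraries of MDA-MB-231 cells, 1 per group, was used. The authors' deposited table gives an expression value per transcript and library. Its header names no unit, and the values were read as FPKM that the authors computed per transcript before deposit. Cutadapt, HISAT2 2.0.5, StringTie and the hg19 build are named, without roles or settings, per the submitters' processing notes; the sources used here give no annotation release, strand setting or filter.

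Of 39605 transcript IDs, 99.5% matched GENCODE release 29 without version, used for symbols, lengths and exon structure. FPKM was summed per gene. Genes of at least 1 FPKM in a library were set beside each other at 2-fold and 1.5-fold on the scale with a pseudocount of 1. A peak of low FPKM times length in genes with a single listed transcript, at 84 (si-v) and 91.1 (control), was taken as 1 fragment. Of the 57 and 66 values within 30% of it, 64.9% and 69.7% lay within 5%, so fragment numbers are approximate. The worth of 1 fragment, the fold calls and the interval coverage were tested on simulated fragments of genes with a single listed transcript. The division of reads among transcripts, reads shared between genes and variation between cultures were not simulated. No p-value was used. The 8 genes and all lists were chosen with earlier results of these data known. Within each list the 2 highest and 2 lowest ratios are named, beside marker and reference genes; other names are said to be chosen later. Protein sequences planned for comparison were not used here. Python 3.11.15, numpy 2.4.6, pandas 2.3.3 and scipy 1.17.1 were used.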

Additional observations from a re-analysis of the deposited data

How the results depend on the processing

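No paired analysis was possible because each group has 1 library. Over the alternatives tried (pseudocounts of 0.1 and 0.5 FPKM, scaling to the median ratio or to the sum without mitochondrial genes, the most abundant transcript only, and approximate fragments per gene with a pseudocount of 1 fragment), none of the 8 genes changed the sign of its log2 ratio: IL6 ran from 1.12 to 2.28, CSF2 from 1.35 to 4.11, CXCL8 from 0.86 to 1.20, CXCL2 from 0.38 to 0.65, CXCL3 from 0.22 to 0.77, LIF from -0.08 to -0.01, CXCL1 from -0.20 to -0.14 and IL11 from -0.42 to -0.11. Most of these settings could hardly change a sign, so the unchanged signs are little of a check. A pseudocount in FPKM cannot change the sign of a ratio. Every member but IL11 has a single listed transcript, so the most abundant transcript gives the same value. The scalings shifted levels by a log2 of only 0.01 and 0.07. The median over the 7 that reached 1 FPKM, 0.42, was 0.62 with a pseudocount of 0.1 and 0.65 on fragments. Of these, 2 were 2-fold higher, and 3, with CXCL8, under pseudocounts of 0.1 and 0.5 and on fragments. With genes of at least 5 FPKM alone, 2 of the 8 were left, and 0 were 2-fold higher, since CSF2 and IL6 are below that level. Over all genes, 262 were higher and 275 lower at 2-fold. The numbers were 486 and 473 with a pseudocount of 0.1, 683 and 706 with the most abundant transcript only, 520 and 445 on fragments, 221 and 316 when scaled to the sum without mitochondrial genes, and 1085 and 984 at 1.5-fold. Added after the data were seen, the most abundant transcript only gave list medians of -0.43 for IL-6 receptors and signalling, 0.68 for the regulators of cytokine transcription and -0.13 for IL-1, TNF and Toll-like receptor inputs, against -0.20, 0.44 and -0.02; the cause was not tested. Depth limits CXCL3, CSF2 and IL6, which rest on 3, 0 and 5 control fragments.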
